A study of Mus musculus with 12 samples.

Results

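The 9 genes Bmp4, Bmpr1a, Smad1, Smad5, Smad6, Smad7, Id1, Id2 and Id3 run from a signalling ligand through its receptor and intracellular messengers to the genes it switches on. They were picked by gene name, with earlier results of these data known, and make up 9 of the 41079 gene identifiers in each table. RNA was sequenced in 12 libraries of mouse embryonic stem cells, pluripotent cells taken from the early embryo, with 3 libraries labelled as biological replicates in each of 4 groups. The groups were untreated wild-type cells, wild-type cells given etoposide, untreated Bod1l knockout cells that had received tamoxifen, and Bod1l knockout cells that had received tamoxifen and were given etoposide. Etoposide is a topoisomerase II poison that leaves double-strand breaks in DNA, and Bod1l encodes a partner of the SETD1A complex, an enzyme that methylates lysine 4 of histone H3. Since tamoxifen appears in the labels of no wild-type library, an effect of losing Bod1l and one of the drug cannot be told apart. The dose and duration of either drug, and whether the knockout cells were 1 clone or several, are not given in the sources used here. Levels are in TPM, each gene's share of the transcripts in its library scaled to a fixed total. They are corrected for gene length and can be compared between genes.

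Bone morphogenetic protein 4 is a secreted ligand that brings type I receptors such as BMPR1A together with type II receptors. The receptors phosphorylate SMAD1 and SMAD5, which enter the nucleus with SMAD4 and activate target genes. Among these are the ID genes, whose products bind E proteins and keep them from DNA, and Smad6 and Smad7, whose products feed back to restrain the receptors. In mouse embryonic stem cells, BMP4 acting through ID proteins is known to support self-renewal together with leukaemia inhibitory factor.

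Sequence before the start is shown for Bmp4, Id2 and Id3, which are among the genes whose levels changed in the results below. It is also shown for Smad6, which holds the only palindromic SMAD element among the genes matched. The levels of Smad1 and Smad5 changed as well, and their sequences are not shown. The sequences come from RefSeq in build GRCm38.p6, another build than that of the expression tables, and 7 of the 9 genes were matched, Id1 and Smad7 not. Capitals mark matches to the palindromic SMAD element GTCTAGAC, to the GC-rich elements GGCGCC and GGAGCC bound by BMP SMADs, and to the E-boxes CACGTG and CAGCTG, which are bound by helix-loop-helix proteins of the kind that E proteins belong to. The E-box CACGTG and the other palindromes read the same on both strands, and GGAGCC appears as GGCTCC on the other strand. The first line is the whole stretch of 250 bases before the Bmp4 start (chr14:46390670-46390919, minus strand). The second is the part of that stretch at Id2 that lies outside annotated exons (chr12:25096254-25096342, minus strand). The other lines hold 1 marked site each, at Id2 (chr12:25096165-25096190, minus strand), at Id3 (chr4:136143625-136143650, plus strand) and across the Smad6 start (chr9:64022046-64022073, minus strand).
Bmp4: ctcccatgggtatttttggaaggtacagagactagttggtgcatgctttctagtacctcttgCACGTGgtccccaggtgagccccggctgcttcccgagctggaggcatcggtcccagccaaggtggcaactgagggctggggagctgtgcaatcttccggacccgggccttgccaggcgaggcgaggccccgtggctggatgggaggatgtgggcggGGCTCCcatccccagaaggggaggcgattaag
Id2, distal: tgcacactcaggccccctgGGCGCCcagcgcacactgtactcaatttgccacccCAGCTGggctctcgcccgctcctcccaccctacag
Id2, proximal: atgatggacgGGAGCCcttccaccaa
Id3: tcgcatccgaGGCTCCgctgtcctcg
Smad6: ccgccaaagtGTCTAGACtggcatatga
Counted back from the start, the Bmp4 matches began at base 188 (CACGTG) and base 32 (GGCTCC), and the Id3 match (GGCTCC) at base 187. The Id2 matches began at base 231 (GGCGCC), base 196 (CAGCTG) and base 88 (GGAGCC). Over the 300 bases searched around each of 32851 RefSeq starts, GGAGCC or its reverse was found in 30.8%, CAGCTG in 16.3%, GGCGCC in 11.9% and CACGTG in 7.15%. GTCTAGAC was found in 0.213% of them. The windows of the matched genes held 60 to 79.3% G and C, against a median of 52.7% over all starts. The shares given are not matched for this. Bmpr1a held GGCGCC. At Smad5, the GGCGCC found at 2 of its 3 listed starts is 1 and the same site, after 1 start and before the other. The remaining Smad5 start held GGCTCC. Smad6 also held GGAGCC in 2 places, and Smad1 held none of these runs. The proximal Id2 site and the Id3 site lie in exons of other annotated transcripts of the same genes. A match is a run of letters and was not tested for binding.

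All 12 libraries held between 5.23 and 7.76 gigabases of aligned sequence, estimated from the deposited coverage. In wild type they held 6.64 to 7.30 gigabases untreated and 5.78 to 7.04 after etoposide. In the knockout they held 5.23 to 6.51 untreated and 6.88 to 7.76 after etoposide. The untreated knockout thus lay below untreated wild type and the treated knockout, and the part of this in the results was not tested. Bod1l stood at 46.5 to 51.1 TPM in the 6 wild-type libraries and at 11.2 to 12.95 TPM in the 6 knockout libraries. The direction matches the labels, but Bod1l RNA was not absent in the knockout. The source of the remaining RNA was not tested. All 8 embryonic stem cell markers were expressed in every library. Their summed level was 8243 to 8258 TPM in wild type before and 7766 to 8085 TPM after etoposide, and 7568 to 7686 TPM in the knockout before and 7204 to 7535 TPM after it. The summed level of 8 feeder fibroblast markers was 4.94 to 7.65 TPM over all libraries.

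All 9 genes passed the filter of a mean of at least 1 TPM, as did 14107 genes in all. Their levels covered a wide part of the tested range, short of both ends: Smad7, at a mean of 77.3 TPM over the 12 libraries, was above 80.7% of tested genes, and Smad6, at 3.85 TPM, was above 20.0%. In untreated wild-type cells the order was Smad7, Id3, Bmpr1a, Smad5, Id1, Bmp4, Smad1, Id2 and Smad6. The ranges of the 3 libraries overlapped between Id3 and Bmpr1a and between Smad5 and Id1, so these neighbours were not separated. Bmp4 moved furthest in this order. It stood above Smad1 with no overlap in both untreated groups, overlapped Smad1 in treated wild type, and lay below it with no overlap in the treated knockout. The plot of levels by library shows all values.

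**Figure D1:**
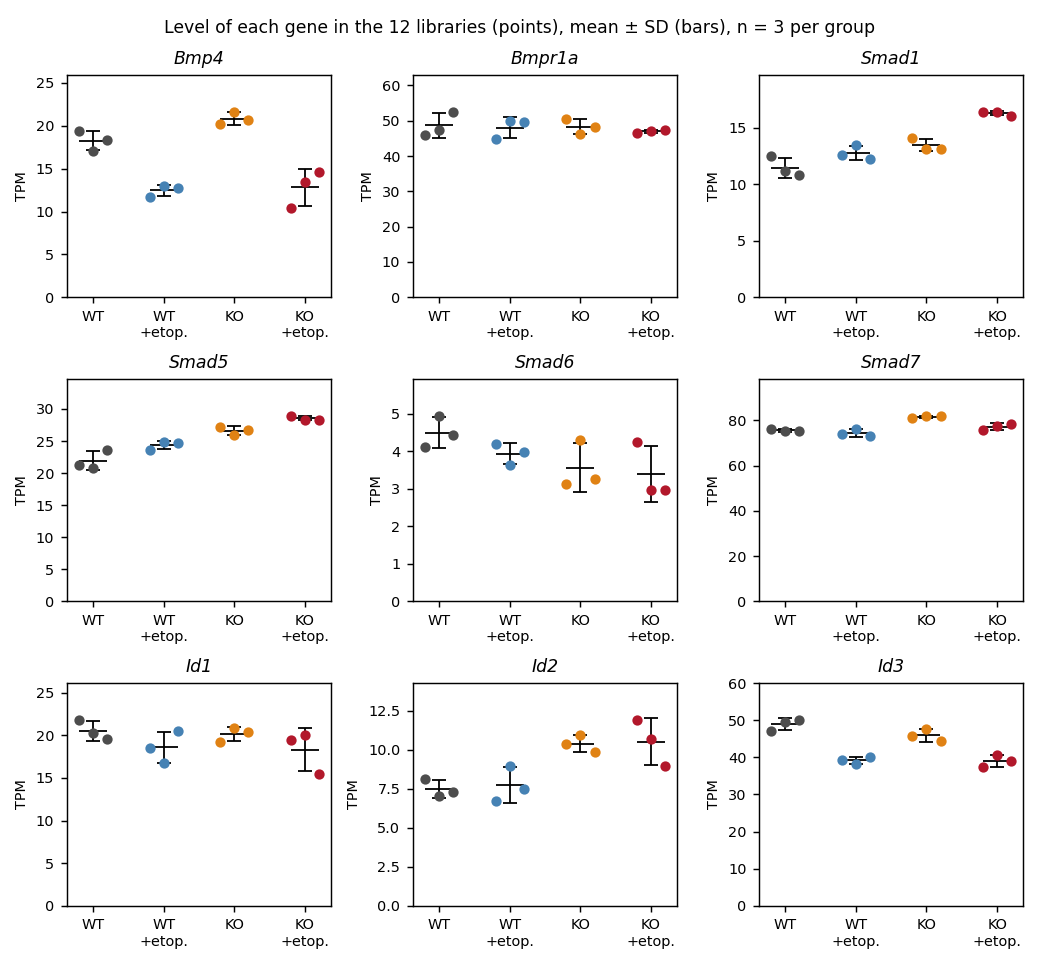
Level of each gene in TPM (vertical axes, starting at 0) in the 12 libraries, by group. Points are libraries, long bars the mean and short bars the SD (n = 3). Bmp4 and Id3 were lower in every treated library than in any untreated library of the same genotype, and Id2 was higher in the untreated knockout than in untreated wild type.

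Bmp4, the ligand, fell with etoposide in both genotypes. It lies on chr14:46620982-46628126 of GRCm39, on the minus strand. Its level was 19.3, 17.1 and 18.4 TPM in untreated wild type (18.3 ± 1.13, SD, n = 3) and 11.7, 12.96 and 12.8 TPM after etoposide (12.5 ± 0.658). In the knockout it was 20.2, 21.6 and 20.6 TPM untreated (20.8 ± 0.753) and 10.4, 13.5 and 14.6 TPM after etoposide (12.8 ± 2.14). All 6 treated libraries lay below all 6 untreated libraries. The mean fell by 31.65% in wild type (log2 change of TPM + 1 -0.51 ± 0.10, SE, limma adjusted p = 0.00122). In the knockout it fell by 38.4% (log2 change -0.67 ± 0.10, limma adjusted p = 0.000278). Adjusted p here is limma's moderated test with Benjamini-Hochberg adjustment over all 14107 genes, and a gene was called changed where it was under 0.05. The log2 changes understate those of low genes because 1 TPM was added to every value. In bulk RNA, fewer cells that express a gene and less RNA per cell cannot be told apart.

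The treated knockout libraries spread more for Bmp4 than the other groups, with the first at 10.4 TPM. Without that library the log2 change in the knockout was -0.54 and the gene was still called (limma adjusted p = 0.00384). Untreated knockout libraries all lay above untreated wild type for Bmp4, by 0.18 ± 0.10 on the log2 scale, which missed the threshold (limma adjusted p = 0.138) and passed it in 2 of 21 alternative settings. After etoposide the genotypes differed by 0.02 (95% interval -0.18 to 0.23). Another gene, Gm15222, lies within Bmp4 on the opposite strand. Its level was 1.11 ± 0.191 TPM in wild type before and 1.30 ± 0.381 TPM after etoposide, and 2.15 ± 0.459 TPM in the knockout before and 1.28 ± 0.364 TPM after it. The strand setting of the authors' counting is not given in the sources used here, so reads of the pair may not have been separated.

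Bmpr1a, the type I receptor for BMP4 (chr14:34133018-34225335, minus strand), was called in none of the comparisons, at an unadjusted p of 0.504 or more in the 4 comparisons between groups. It ranged from 44.7 to 52.6 TPM over the 12 libraries, with group means of 48.7 ± 3.47 and 48.1 ± 2.91 TPM in wild type without and with etoposide and 48.3 ± 2.09 and 47.0 ± 0.518 TPM in the knockout. The libraries of all groups overlapped. The 95% interval of the change with etoposide was -0.14 to 0.10 in wild type and -0.16 to 0.08 in the knockout, on the log2 scale.

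Smad1 and Smad5, the messengers that the BMP receptors phosphorylate, were both higher in the knockout. Smad1 (chr8:80065024-80126057, minus strand) stood at 12.5, 11.1 and 10.8 TPM in untreated wild type (11.5 ± 0.896) and at 14.1, 13.1 and 13.1 TPM in the untreated knockout (13.4 ± 0.530). After etoposide it stood at 12.6, 13.4 and 12.2 TPM in wild type (12.8 ± 0.619) and at 16.4, 16.4 and 16.1 TPM in the knockout (16.3 ± 0.188). In both treatments all knockout libraries lay above all wild-type libraries. The rise in the knockout was 17.2% untreated (log2 change 0.21 ± 0.060, limma adjusted p = 0.011) and 27.7% after etoposide (0.33 ± 0.060, limma adjusted p = 0.000881). Smad1 also rose with etoposide in the knockout, by 21.2% (0.26 ± 0.060, limma adjusted p = 0.00745), where the treated libraries lay above the untreated. In wild type the change was 0.14 ± 0.060 with overlapping libraries and missed the threshold (limma adjusted p = 0.0884). It passed the threshold without the first untreated wild-type library (limma adjusted p = 0.024).

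Smad5 (chr13:56850804-56890191, plus strand) stood at 21.3, 20.9 and 23.6 TPM in untreated wild type (21.9 ± 1.49) and at 27.2, 26.0 and 26.7 TPM in the untreated knockout (26.6 ± 0.634). With etoposide it stood at 23.7, 24.8 and 24.7 TPM in wild type (24.4 ± 0.630) and at 28.9, 28.3 and 28.3 TPM in the knockout (28.5 ± 0.332). Each of these 4 groups was separate from the next, wild type below knockout and, within each, untreated below treated. The knockout rise was 21.6% untreated (0.27 ± 0.048, limma adjusted p = 0.00055) and 17.0% after etoposide (0.22 ± 0.048, limma adjusted p = 0.00296). With etoposide, Smad5 rose by 11.3% in wild type (0.15 ± 0.048, limma adjusted p = 0.0287). This call was lost under median-of-ratios scaling (0.12, limma adjusted p = 0.058), under quantile normalization (0.08, limma adjusted p = 0.219) and in a fit of the compared groups alone (limma adjusted p = 0.0809). It was also lost without the first or the second untreated wild-type library (0.13 and 0.12, limma adjusted p = 0.0958 and 0.115), and without the second or the third treated one (0.14 for both, limma adjusted p = 0.0816 and 0.084). In the knockout the change was 0.10 ± 0.048 and missed the threshold, with all treated libraries above all untreated. The summed TPM of Smad1 and Smad5 was 33.4 ± 1.24, 37.2 ± 0.986, 40.1 ± 1.12 and 44.8 ± 0.433 in these groups, from lowest to highest.

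Smad6 and Smad7 encode the inhibitory SMADs, which act against the receptors and are themselves BMP targets. Smad7 (chr18:75500436-75529006, plus strand) was at 76.3, 75.3 and 75.3 TPM in untreated wild type (75.6 ± 0.611) and at 81.1, 81.9 and 82.0 TPM in the untreated knockout (81.7 ± 0.499). All knockout libraries lay above all wild-type libraries, and the rise of 7.98% was called (0.11 ± 0.027, limma adjusted p = 0.00507). After etoposide Smad7 was at 74.1, 76.4 and 73.0 TPM in wild type (74.5 ± 1.76) and at 75.7, 77.7 and 78.5 TPM in the knockout (77.3 ± 1.43), and the libraries overlapped. The change with etoposide in the knockout was -0.08 ± 0.027, with every treated library below every untreated one. It missed the threshold (limma adjusted p = 0.0513) and passed it in 6 of 21 alternative settings (limma adjusted p = 0.0314 to 0.167 over all). Smad6 (chr9:63860358-63929374, minus strand), the lowest of the 9 genes, was at 4.11, 4.94 and 4.44 TPM in untreated wild type and at 3.14, 4.30 and 3.25 TPM in the untreated knockout. The libraries overlapped, and the difference of -0.27 ± 0.13 missed the threshold (limma adjusted p = 0.0959). Without the second untreated knockout library, at 4.30 TPM, it was called (-0.39, limma adjusted p = 0.0308). After etoposide Smad6 was at 4.20, 3.64 and 3.98 TPM in wild type and at 4.24, 2.97 and 2.96 TPM in the knockout, and no comparison of it was called.

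The ID genes differed in which comparisons called them, and their changes were not tested against each other. Id3 (chr4:135871133-135872703, plus strand) was the most abundant, at 47.0, 49.6 and 50.1 TPM in untreated wild type (48.9 ± 1.64) and 39.3, 38.2 and 40.1 TPM after etoposide (39.2 ± 0.934). In the knockout it was at 45.8, 47.6 and 44.3 TPM untreated (45.9 ± 1.69) and 37.5, 40.7 and 38.9 TPM after etoposide (39.0 ± 1.60). As for Bmp4, all 6 treated libraries lay below all 6 untreated libraries. Id3 fell by 19.8% in wild type (-0.31 ± 0.042, limma adjusted p = 0.000102) and fell by 14.95% in the knockout (-0.23 ± 0.042, limma adjusted p = 0.00167). Between the untreated genotypes it differed by -0.09 ± 0.042 with overlapping libraries (limma adjusted p = 0.0985), a difference that passed the threshold with FPKM and with median-of-ratios scaling (limma adjusted p = 0.0375 and 0.0408).

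Id2 (chr12:25143798-25146091, minus strand) was higher in the knockout in both treatments. It was at 8.14, 7.05 and 7.32 TPM in untreated wild type (7.50 ± 0.566) and at 10.4, 11.0 and 9.86 TPM in the untreated knockout (10.4 ± 0.552). After etoposide it was at 6.70, 8.99 and 7.47 TPM in wild type (7.72 ± 1.16) and at 11.9, 10.7 and 8.94 TPM in the knockout (10.5 ± 1.5). The untreated knockout libraries all lay above wild type, and the rise was 38.6% (0.42 ± 0.11, limma adjusted p = 0.0067). After etoposide the rise was 36.2% (0.40 ± 0.11, limma adjusted p = 0.0106), with 1 knockout library, at 8.94 TPM, just below the highest wild-type library, at 8.99 TPM. Etoposide changed Id2 by 0.03 in wild type (95% interval -0.21 to 0.27) and by 0.01 in the knockout (-0.23 to 0.25), and neither was called.

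Id1 (chr2:152578171-152579330, plus strand) was called in no comparison. It was at 21.8, 20.3 and 19.6 TPM in untreated wild type (20.5 ± 1.15) and at 18.5, 16.7 and 20.5 TPM after etoposide (18.6 ± 1.86). In the knockout it was at 19.2, 20.9 and 20.4 TPM untreated (20.2 ± 0.874) and at 19.4, 20.1 and 15.4 TPM after etoposide (18.3 ± 2.53). The libraries overlapped in all 4 comparisons. The change with etoposide was -0.14 in both genotypes (95% intervals -0.34 to 0.06), an interval that holds both no change and a fall as large as that of Id3.

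**Figure D2:**
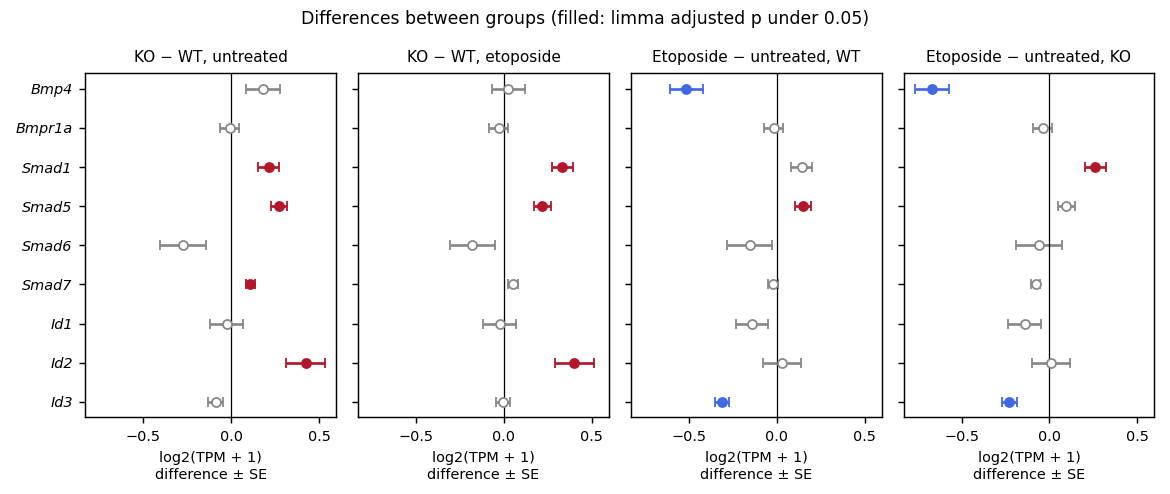
Differences of log2(TPM + 1) between groups (horizontal axes) for the 9 genes, 1 panel per comparison. Points are limma estimates and bars the SE, and filled points have an adjusted p under 0.05. Smad1, Smad5 and Id2 were higher in the knockout in both treatments, and Bmp4 and Id3 were lower with etoposide in both genotypes.

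Many genes of all kinds changed in these comparisons, and the counts of called genes are set beside that background. Between the untreated genotypes, 4 of the 9 genes were called, all higher (Smad1, Smad5, Smad7 and Id2), where 49.6% of all tested genes were called, 28.1% higher and 21.5% lower. After etoposide, 3 of 9 were called, all higher (Smad1, Smad5 and Id2), against 44.1% of all genes, 22.5% higher and 21.7% lower. With etoposide in wild type, 1 gene rose (Smad5) and 2 fell (Bmp4 and Id3), against 34.3% of all genes called, 20.8% higher and 13.5% lower. Under quantile normalization the calls over all genes in this comparison turned from 2937 higher and 1904 lower to 2166 higher and 2771 lower, and Bmp4 and Id3 remained called lower. With etoposide in the knockout, 1 gene rose (Smad1) and 2 fell (Bmp4 and Id3), against 25% of all genes, 14.5% higher and 10.5% lower. The median log2 change of the 9 genes was 0.11 and 0.02 in the comparisons of genotype, untreated and treated, beside 0.04 and 0.02 over all tested genes. With etoposide it was -0.02 in wild type and -0.06 in the knockout, beside 0.02 and 0.00 over all tested genes.

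The change with etoposide was compared between genotypes through the interaction in limma. It called 0 of the 9 genes, none had an unadjusted p under 0.05, and none was called in any of the 20 alternative settings, where 1.23% of all tested genes were called. For Bmp4 the change in the knockout minus that in wild type was -0.16 (95% interval -0.45 to 0.14), for Id3 0.08 (-0.05 to 0.21) and for Smad1 0.12 (-0.07 to 0.30). The larger rise of Smad1 and larger fall of Bmp4 in the knockout were thus not shown to differ from wild type.

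The summed levels of markers of other cell types also differed between some of the groups. The summed level of 6 extraembryonic endoderm markers was 2.84 to 3.29 TPM in untreated wild type and 5.46 to 6.36 TPM in the untreated knockout, where Id2, Smad1, Smad5 and Smad7 were higher. After etoposide it was 3.33 to 4.83 TPM in wild type and 4.72 to 5.93 TPM in the knockout. These ranges overlapped, though Id2, Smad1 and Smad5 were called higher there as well. In every group 3 or 4 of these 6 markers were below 1 TPM and 0 were at 0. By group means, 4 of the 6 were higher and 2 lower in the untreated knockout, and Dab2 moved most, from 1.16 to 2.65 TPM. The summed level of 6 trophectoderm markers was 79.0 to 83.3 TPM in untreated wild type and 70.9 to 74.3 TPM in the untreated knockout. That fall came from Tfap2c alone, which went from 47.7 to 32.4 TPM, and the means of the other 5 markers were higher, at a sum of 33.9 TPM in wild type and 39.8 TPM in the knockout. After etoposide the trophectoderm sum was 78.6 to 79.9 TPM in wild type and 65.0 to 69.7 TPM in the knockout. With etoposide 4 of the 6 means were lower and 2 higher in each genotype. Krt8 moved most, from 26.5 to 21.7 TPM in wild type and from 29.5 to 23.5 TPM in the knockout. With etoposide, where Bmp4 and Id3 fell, the summed level of 5 neuroectoderm markers went from 140.0 to 148.4 TPM down to 124.7 to 132.0 TPM in wild type, and from 138.6 to 149.6 TPM down to 124.5 to 128.1 TPM in the knockout. Tubb3 made up most of these sums, at 132.7 and 118.2 TPM in wild type and 130.6 and 114.5 TPM in the knockout, and 4 of 5 and 3 of 5 means were lower after etoposide. The summed level of 6 mesoderm markers was 16.3 to 19.95 TPM before and 14.1 to 15.98 TPM after etoposide in wild type. In the knockout it was 15.6 to 18.7 and 14.9 to 15.8 TPM, and 4 of 6 means were lower in each genotype. Eomes moved most, from 11.05 to 8.87 TPM in wild type and from 8.47 to 6.44 TPM in the knockout. The means of the rest summed to 7.12 before and 5.95 TPM after etoposide in wild type. In the knockout the rest rose, from 8.78 to 9.09 TPM. Between genotypes, 3 of the 6 mesoderm means were higher and 3 lower in the knockout in each treatment. For the stem cell markers given above, 6 of 8 means were lower after etoposide in each genotype. In the untreated knockout 4 were lower and 4 higher, and Dppa5a alone went from 3806 to 3259 TPM, while the sum of the other 7 went from 4442 to 4369 TPM. The part of these cell types in the results was not tested.

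Of 15 BMP and GDF ligand genes, 5 were tested. Untreated, 1 was higher and 1 lower in the knockout. After etoposide 0 were higher and 1 lower there, and with etoposide 1 was higher and 2 lower in each genotype. Their median log2 change was 0.19 and 0.02 between genotypes, untreated and treated, and 0.09 and -0.14 with etoposide in wild type and knockout. The medians over all tested genes given above are the background for this list and for those that follow, as are the shares of all genes called, 49.6% and 44.1% between genotypes and 34.3% and 25% with etoposide. Bmp7 moved opposite to Bmp4 with etoposide. Bmp7 encodes another BMP ligand, and rose from 5.24, 4.94 and 5.26 TPM to 13.9, 12.3 and 12.4 TPM with etoposide in wild type (log2 change 1.18 ± 0.086, limma adjusted p = 5.22e-07). In the knockout it rose from 7.84, 8.23 and 6.49 TPM to 13.3, 15.5 and 14.97 TPM (0.87 ± 0.086, limma adjusted p = 1.41e-05). Bmp4 made up 78.01% ± 0.596 of the summed Bmp4 and Bmp7 TPM in untreated wild type and 49.2% ± 2.99 after etoposide (SD, n = 3). In the knockout its share was 73.5% ± 2.22 untreated and 46.6% ± 2.66 after etoposide. The sum itself was 23.4 ± 1.28 and 25.4 ± 0.219 TPM in wild type and 28.3 ± 1.41 and 27.4 ± 3.20 TPM in the knockout, without and with etoposide. Bmp7 was also higher in the untreated knockout than in untreated wild type (0.47 ± 0.086, limma adjusted p = 0.000796). Gdf3, a ligand of the same superfamily expressed in pluripotent cells, fell with etoposide from 152.7 ± 4.74 to 130.9 ± 3.11 TPM in wild type and from 139.8 ± 7.21 to 113.0 ± 7.10 TPM in the knockout.

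**Figure D3:**
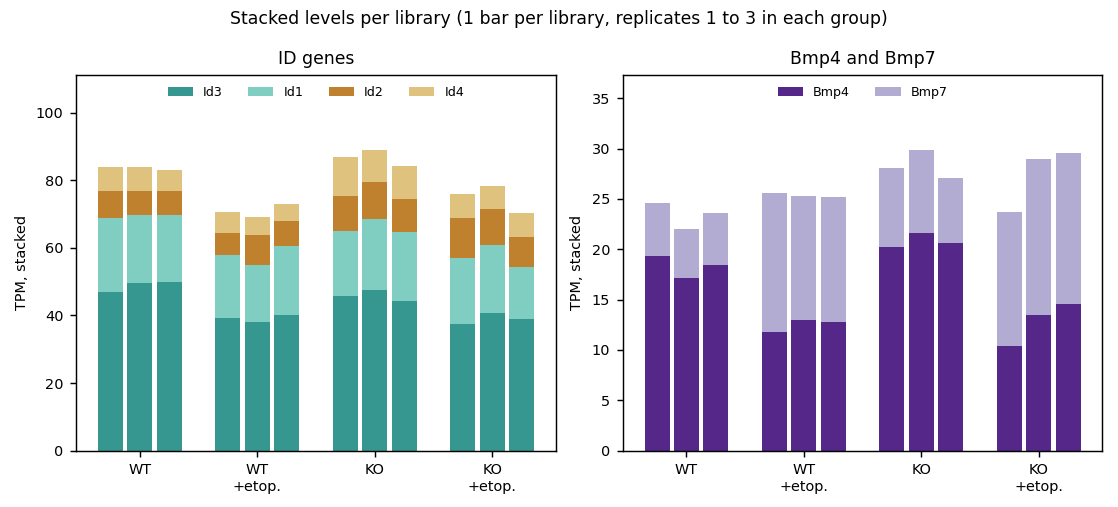
Levels per library in TPM, stacked, for the 4 ID genes (left) and for Bmp4 and Bmp7 (right), with 1 bar per library and 3 libraries per group. Bmp4 made up 77.6 to 78.7% of the pair in untreated wild type and 45.8 to 51.3% after etoposide.

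Id4, the fourth ID gene, joined both patterns. It stood at 6.73 ± 0.481 TPM in untreated wild type and 10.2 ± 1.02 TPM in the untreated knockout, a rise like that of Id2 (0.54 ± 0.084, limma adjusted p = 0.000237). It fell with etoposide, like Id3, to 5.52 ± 0.545 TPM in wild type (-0.25 ± 0.084, limma adjusted p = 0.04) and to 7.09 ± 0.144 TPM in the knockout (-0.47 ± 0.084, limma adjusted p = 0.0014). The call in wild type was lost in 9 of 21 alternative settings, with limma adjusted p between 0.00296 and 0.139. Of the 7 ID and E protein genes, all tested, 2 were higher and 0 lower in the knockout in both treatments (Id2 and Id4), and 0 were higher and 3 lower with etoposide in both genotypes. The median log2 change of these genes was 0.02 in both comparisons of genotype and -0.14 with etoposide in both genotypes. The summed TPM of the 4 ID genes was 83.7 ± 0.482 and 71.0 ± 1.94 in wild type without and with etoposide, and 86.7 ± 2.37 and 75.0 ± 4.09 in the knockout. Every treated library was below every untreated library of its genotype, and Id2 made up 8.97% ± 0.668 of the sum in untreated wild type and 12.0% ± 0.310 in the untreated knockout. For these sums and shares, an exact two-sided permutation test of 3 libraries against 3 cannot go below p = 0.1. Of 20 such tests, those at 0.1 had a Benjamini-Hochberg adjusted p of 0.14. E proteins are the partners that ID proteins hold off DNA, and 3 of the 7 genes encode them. Tcf4 was the third gene called lower with etoposide, at -0.19 ± 0.067 in wild type (limma adjusted p = 0.0406) and -0.25 ± 0.067 in the knockout (limma adjusted p = 0.018). These calls held in 12 and 18 of 21 alternative settings, and Tcf3 and Tcf12 were called in no comparison.

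Genes for receptors and co-receptors were called in both directions. Of 10 such genes, Bmpr1a among them, 9 were tested. In the knockout 3 were higher and 1 lower untreated, and 2 were higher and 2 lower after etoposide. With etoposide 3 were higher and 1 lower in wild type, and 2 were higher and 1 lower in the knockout. Their median log2 change was 0.08 and -0.04 between genotypes, untreated and treated, and -0.02 and -0.07 with etoposide in wild type and knockout. Eng, which encodes the co-receptor endoglin, rose with etoposide from 57.7 ± 2.37 to 106.7 ± 1.40 TPM in wild type (0.88 ± 0.037, limma adjusted p = 4.46e-09). In the knockout it rose from 88.7 ± 3.06 to 129.3 ± 4.03 TPM (0.54 ± 0.037, limma adjusted p = 7.73e-07). Acvrl1, which encodes the type I receptor that pairs with endoglin in vessels, was low but rose from 1.23 ± 0.226 to 2.67 ± 0.380 TPM in wild type and from 1.67 ± 0.0919 to 2.55 ± 0.0764 TPM in the knockout. Bmpr2, which encodes a type II receptor, rose with etoposide in wild type from 10.58 ± 0.425 to 13.42 ± 1.56 TPM (0.31 ± 0.072, limma adjusted p = 0.00499). In the knockout it was not called, at 11.27 ± 0.0523 and 11.15 ± 0.232 TPM. Treated knockout libraries lay below treated wild type for Bmpr2 (-0.24 ± 0.072, limma adjusted p = 0.0165). Its interaction was not called (-0.33 ± 0.10, limma adjusted p = 0.209). The related co-receptor genes Rgma and Rgmb differed in opposite directions between the untreated genotypes. Rgma was lower in the knockout (-0.30 ± 0.082, limma adjusted p = 0.00943) and fell with etoposide from 10.5 ± 0.446 to 6.45 ± 0.233 TPM in wild type (-0.63 ± 0.082, limma adjusted p = 8.14e-05) and from 8.39 ± 1.10 to 5.35 ± 0.313 TPM in the knockout. Rgmb was higher in the knockout, at 7.10 ± 0.0613 against 5.35 ± 0.224 TPM untreated (0.35 ± 0.075, limma adjusted p = 0.00202). With etoposide Rgmb changed by -0.18 ± 0.075 in wild type (limma adjusted p = 0.0891) and by -0.07 ± 0.075 in the knockout, and neither was called.

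Among the 8 SMAD genes, all tested, 4 were higher and 2 lower in the untreated knockout, and 3 higher and 2 lower after etoposide. With etoposide 3 were higher in wild type and 2 in the knockout, and 0 were lower. The median log2 change of these genes was 0.10 and 0.02 between genotypes, untreated and treated, and 0.06 and 0.02 with etoposide in wild type and knockout. Smad3, a messenger of the TGF-beta and activin branch, was lower in the untreated knockout (15.6 ± 1.21 against 19.0 ± 0.204 TPM, -0.27 ± 0.055, limma adjusted p = 0.00152), where Smad1 and Smad5 were higher. Smad2, of the same branch as Smad3, was higher there (22.35 ± 0.891 against 20.04 ± 0.876 TPM, 0.15 ± 0.047, limma adjusted p = 0.019). Smad3 rose with etoposide in wild type (0.19 ± 0.055, limma adjusted p = 0.0186) and in the knockout (0.26 ± 0.055, limma adjusted p = 0.00386). Smad2 was called higher with etoposide in wild type only (0.22 ± 0.047, limma adjusted p = 0.0031). Smad9, the third BMP-responsive SMAD gene, stood at 1.68 ± 0.135 TPM in untreated and 1.65 ± 0.0399 TPM in treated wild type, and at 1.15 ± 0.122 and 0.973 ± 0.205 TPM in the knockout. It was called lower in the knockout after etoposide (-0.43 ± 0.11, limma adjusted p = 0.00672). Its untreated call (-0.32 ± 0.11, limma adjusted p = 0.027) was lost in 4 of the 19 alternative settings that tested it, with limma adjusted p between 0.00819 and 0.0859.

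The next list held 14 intracellular and membrane regulators of the pathway, Smad6 and Smad7 among them, not all of which restrain it. In the untreated knockout 5 were higher and 1 lower, and after etoposide 3 were higher and 1 lower. With etoposide 3 were higher and 1 lower in wild type, and 3 were higher and 0 lower in the knockout. Their median log2 change was 0.10 and 0.06 between genotypes, untreated and treated, and -0.02 with etoposide in each genotype. Skil, which encodes the SMAD corepressor SnoN, was the gene that was lower in the knockout, at 9.85 ± 0.938 against 15.5 ± 1.15 TPM untreated and 9.98 ± 0.547 against 15.7 ± 0.931 TPM after etoposide. Both differences were called (-0.61 ± 0.077 in each, limma adjusted p = 4.45e-05 and 5.4e-05). Its relative Ski was higher in the knockout, at 45.2 ± 0.808 against 40.8 ± 0.752 TPM untreated (0.14 ± 0.037, limma adjusted p = 0.00677). Smurf1, which encodes a ubiquitin ligase that marks BMP SMADs for breakdown, rose with etoposide from 19.1 ± 0.466 to 24.9 ± 0.686 TPM in wild type (0.36 ± 0.042, limma adjusted p = 2.81e-05) and from 21.2 ± 0.590 to 26.2 ± 0.778 TPM in the knockout.

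Of 15 secreted BMP binding proteins and antagonists, 4 were tested. In the knockout 1 was higher and 0 lower untreated, and 1 was higher and 1 lower after etoposide. With etoposide 2 were higher in wild type and 1 in the knockout, and 0 were lower. The median log2 change of these genes was 0.02 and 0.04 between genotypes, untreated and treated, and 0.15 and 0.16 with etoposide in wild type and knockout. Fst, which encodes follistatin, an antagonist of activins and some BMPs, was higher in the knockout in both treatments (20.5 ± 0.841 against 15.8 ± 0.673 TPM untreated, 0.35 ± 0.062, limma adjusted p = 0.000527). Of 14 BMP target genes, the ID genes and inhibitory SMADs among them, 12 were tested. In the knockout 3 were higher and 2 lower untreated, and 2 were higher and 2 lower after etoposide. With etoposide 1 was higher and 2 lower in wild type, and 1 was higher and 3 lower in the knockout. Their median log2 change was 0.01 and -0.04 between genotypes, untreated and treated, and -0.08 and -0.14 with etoposide in wild type and knockout. Zfp423, which encodes a zinc finger partner of BMP SMADs, rose with etoposide from 5.23 ± 0.420 to 7.33 ± 0.111 TPM in wild type (0.42 ± 0.083, limma adjusted p = 0.00187), against the direction of Id3.

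**Figure D4:**
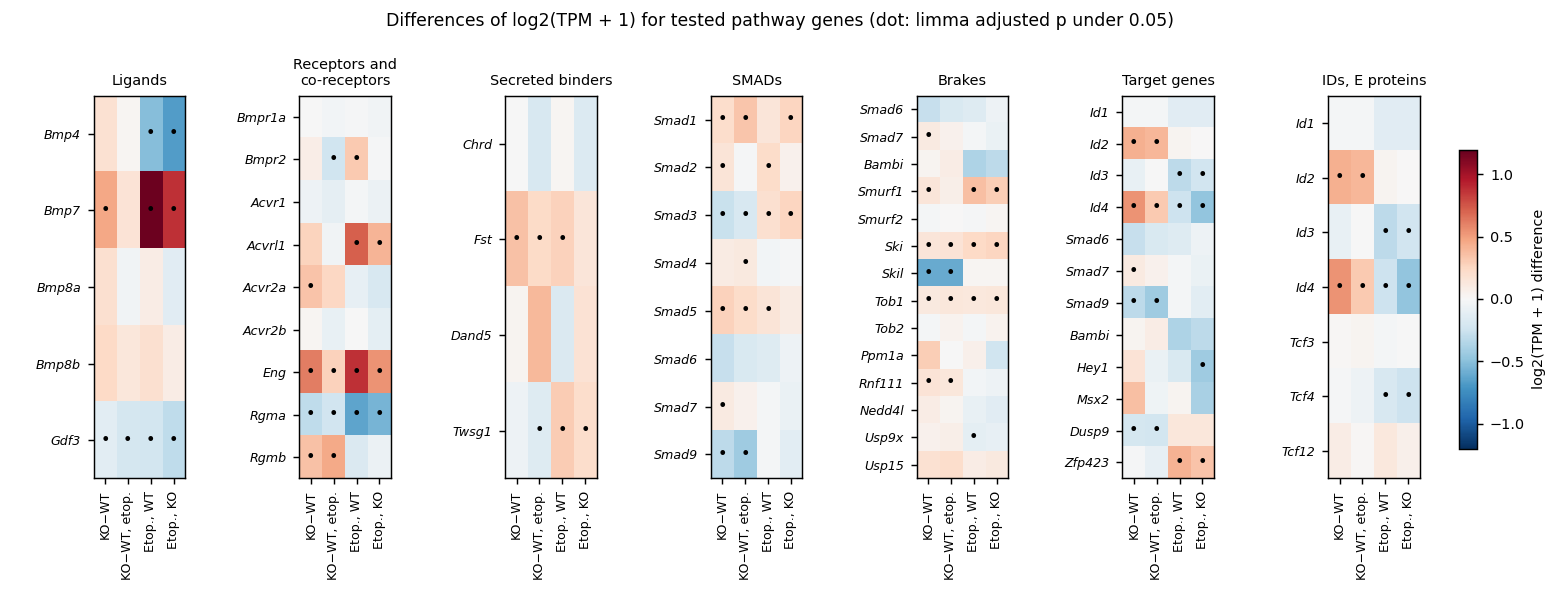
Differences of log2(TPM + 1) (colour, red higher and blue lower) for the tested genes of 7 pathway lists, with 1 column per comparison and a dot where the limma adjusted p was under 0.05. Some genes stand in more than 1 list. The panel titled Brakes holds the intracellular and membrane regulators, not all of which restrain the pathway. Each list except the secreted binders and the ID and E proteins held called genes of both directions in the untreated comparison of genotypes.

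Of the 9 genes, Bmp4 alone had a called change of 1.5-fold or more, in the knockout with etoposide. The other tested genes whose levels over the 12 libraries were closest to its pattern were Fgf3, Foxd3 and Spp1. Genes with clone, model or pseudogene names were left out of this search. Likeness was the root mean square difference of log2(TPM + 1), each gene centred on its mean in untreated wild type. It was 0.136 for Fgf3, 0.145 for Foxd3 and 0.148 for Spp1, against a median of 0.445 over all tested genes. Fgf3, which encodes a fibroblast growth factor, stood at 8.63 and 5.71 TPM in wild type without and with etoposide and at 8.48 and 6.19 TPM in the knockout. Foxd3, which encodes a transcription factor of pluripotent cells, stood at 25.2 and 17.5 TPM and at 28.3 and 19.8 TPM. Spp1, which encodes osteopontin, was far more abundant, at 1004 and 723.6 TPM and at 1067 and 772.1 TPM.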

How the data were processed

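Poly(A)-selected RNA, depleted of ribosomal RNA, was made into strand-specific libraries, per the labels. The submitters' processing notes name Trim Galore 0.6.6 and cutadapt 3.4 for trimming, HISAT2 2.2.1 as the aligner, GRCm39 as the genome and StringTie 2.2.1 for gene abundance. The deposited TPM values, named so per the file headers, correct for gene length and bring every library to the same total. The deposited FPKM values, per the file headers, come from the same step and are scaled to mapped fragments. The deposited coverage column, named per the file headers, is a gene's average read depth, and its ratio to FPKM gave the aligned bases per library. The values are not counts, so no count model was used. With 3 libraries per group, their number limits the precision.

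A gene was kept if its TPM averaged at least 1 across the 12 libraries. On log2(TPM + 1) values, limma 3.58.1 in R 4.3.3 was fitted with 4 group means and 5 comparisons, with a variance trend (3.91 prior and 8 residual degrees of freedom). Benjamini-Hochberg adjustment ran over all 14107 genes tested within each comparison. Intervals are at 95%. The labels call the replicates biological without describing separate cultures, so the p-values cover only variation among these libraries, which may be technical. The code was tested on simulated data. The genes and pathway lists were chosen with earlier results of these data known. A rule picked, per list and comparison, up to 4 called genes of lowest adjusted p beyond the 9 genes. Only a part of the genes picked is described, chosen with their values known. For a gene changed by 1.5-fold or more, the 3 genes of closest pattern were named, leaving out clone, model and pseudogene names. Genes of a list outside this rule, such as Tcf3 and Tcf12, were named with their values known. Alternatives tried were a pseudocount of 0.1, no filter or a filter at 5 TPM, quantile or median-of-ratios scaling, FPKM, a robust spread, a block for the replicate number, a fit of the compared groups alone, and omitting 1 library at a time. Exons in the promoter windows came from the GENCODE annotation of the same build. Protein sequences were not used here.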

Additional observations from a re-analysis of the deposited data

Results flagged for a closer look

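Among the genes of the pathway lists, Eng was the only one whose change with etoposide differed between genotypes by the interaction test. Its rise was smaller in the knockout by 0.338 on the log2 scale, an interaction of -0.338 ± 0.0525 (SE, limma adjusted p = 0.00783). Levels went from 57.7 to 106.7 TPM in wild type and from 88.7 to 129.3 TPM in the knockout. The interaction was called in all 20 alternative settings, between -0.364 and -0.303.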

How the results depend on the processing

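For the 9 genes, 931 values were recomputed under 21 alternatives per comparison (20 for the interaction). Of these, 12 gained a call, 7 lost one and 0 called values changed direction. The lost calls were all of Smad5 with etoposide in wild type, given above. Gained calls were Smad7 with etoposide in the knockout (6), Bmp4 (2), Id3 (2) and Smad6 (1) between untreated genotypes, and Smad1 with etoposide in wild type (1). Over these 9 genes, the list genes picked by the rule and Bod1l, 139 of 2368 values lost a call. The counts of the lists rest in part on such calls: Gdf3 and Dusp9 between untreated genotypes held in 12 and 13 of 21 alternatives, Rgma and Twsg1 between treated genotypes in 13 each, Tob1 with etoposide in 9 (wild type) and 11 (knockout), and Hey1 with etoposide in the knockout in 8 of the 19 that tested it. Smad6 was not tested under the filter at 5 TPM. With the replicate number as a block, the counts of called genes were 4, 3, 3, 3 and 0, as without it. Libraries with the same number did not deviate together (correlations -0.0449 to 0.0453), so the numbers were not taken as pairs. Over all genes, the interaction called 10 higher and 164 lower, against 6 and 98 with no filter, 7 and 95 with quantile normalization, and 3 to 8 higher and 90 to 126 lower when 1 library was left out.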
